A study of Thermothelomyces thermophilus with 6 samples.

Results

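The 64 genes described here had their lowest level on soluble starch, below both glucose and no carbon source, in mycelium of the filamentous fungus Myceliophthora thermophila. They make up 0.703% of the 9110 genes in the count table, and were chosen by their levels in all 3 media. CPM (the count of a gene per 1e6 counted reads of its library) was averaged over the 2 libraries of each medium. A member had at least 3 CPM without carbon and at least 1 CPM on glucose. Its starch mean was at most 50% of the glucose mean and at most 50% of the no carbon mean, and its glucose mean was under 200% of the no carbon mean. A list of 19 genes was to be left out, but none of them met these bounds. Because the levels in all 3 media chose the members, the levels and all contrasts between media are given as a description and carry no test of the set.

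The libraries came from strain ATCC 42464, which was precultured on 2% glucose in Vogel's salts (18 h, 45 °C), washed, and held for 4 h in the test medium. The 3 groups, with 2 libraries each, were mycelium on 2% soluble starch, mycelium on glucose, and mycelium without a carbon source. The labels give no glucose concentration for the test medium and do not say whether the replicates were separate cultures, so the spread between replicates may be technical. All groups share the glucose preculture, no library was taken before the transfer, and the sequenced RNA is a bulk of whole mycelium, in which fewer expressing cells and less RNA per cell cannot be told apart.

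M. thermophila is a thermophilic fungus that secretes enzymes against plant polysaccharides. In filamentous fungi, starch is cut outside the cell by amylases and glucoamylase into glucose and short glucose chains, and the transcription factor AmyR is known, best from Aspergillus, to switch on the genes for these enzymes. Glucose itself shuts off many genes for other carbon sources through carbon catabolite repression, in which the zinc finger protein CreA of Aspergillus (CRE-1 in Neurospora) takes part. Genes that serve one process, such as the making of a secondary metabolite, often lie side by side in fungal genomes. The sources used here give no product, symbol or function for any of the 64 members, so each is named by its ID in the deposited table. No sequence of a member is shown, and sequences were not analysed here.

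Library totals ran from 17726204 to 23635336 counted reads. With CPM by library totals, the median of the 8718 genes tested on starch was 118% of its glucose level and 97.6% of its no carbon level, and the median gene on glucose was at 83.2% of its no carbon level. In edgeR with TMM scaling, which centres most genes, the median log2 fold changes were 0.04 for starch over glucose, 0.01 for starch over no carbon and -0.02 for glucose over no carbon. The corresponding medians with library totals alone were 0.24, -0.04 and -0.27. Of the 6 genes with a symbol, none was a member. The glucoamylase gene gla1 (Mycth_72393) had 2527 and 2618 CPM on starch, 44.8 and 48.2 CPM on glucose, and 9.58 and 8.01 CPM without carbon. In the edgeR quasi-likelihood test (adjusted p under 0.05), 4 of these 6 genes were higher and 1 was lower on starch than on glucose. Relative to no carbon, 5 were higher on starch and 1 was lower. Of all genes tested, 32.5% were called lower on starch than on glucose and 44.7% lower than without carbon. The shares called higher are not given here, and nothing is read from the counts of these 6 genes.

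Over the 64 members, the starch level had a median of 40.1% of the glucose level (1.49% to 49.8%) and of 30.1% of the no carbon level (0.0141% to 49.8%). Together the members took 3990.3 and 4004 CPM in the starch libraries, 10436 and 10367 CPM in the glucose libraries, and 16317 and 15944 CPM in the no carbon libraries. For each of the 64, both starch libraries lay below all 4 other libraries, an order that 11.3% of the genes tested showed and that the selection favoured. The edgeR test called 64 members lower on starch than on glucose (32.5% of all genes tested were called lower) and 64 lower on starch than without carbon (44.7% of all genes). When the difference had to exceed 2-fold (edgeR's glmTreat), 57 were called lower than on glucose, against 3.14% of all genes, and 56 lower than without carbon, against 19.0% of all genes. Nothing is read from these counts, since the selection used the same values. With TMM scaling in place of library totals, 88 genes met the bounds, of which 60 were among the 64.

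**Figure D1:**
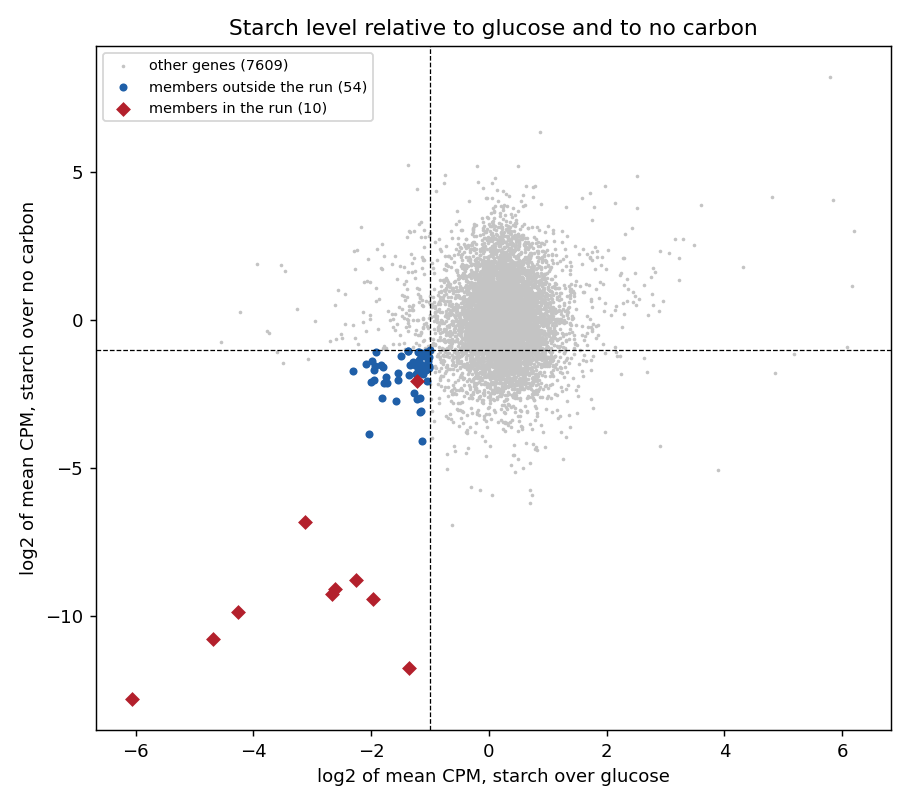
Each point is a gene with at least 3 CPM without carbon, at least 1 CPM on glucose and a read on starch. The horizontal axis is the log2 ratio of mean CPM on starch over glucose and the vertical axis that of starch over no carbon, and the dashed lines mark the 2-fold bounds. The 54 members outside the run (circles) spread from the corner of the bounds, with starch down to 20.3% of glucose and to 5.92% of no carbon. Of the 10 members in the run (diamonds), 9 lie far below them, at no more than 0.886% of no carbon. The 3 grey points left of and below both lines are genes with glucose at 200% of no carbon or more.

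A trait that the selection did not use was position. In the gene order of the RefSeq assembly, 10 of the 64 members stood in immediate succession, with no other annotated gene between them. The genes were, in that order, Mycth_50128, Mycth_115957, Mycth_2303701, Mycth_2303702, Mycth_2138881, Mycth_2303707, Mycth_81364, Mycth_2303709, Mycth_50920 and Mycth_48716. One other pair of members, Mycth_2301600 and Mycth_2125509, were also next to each other. The remaining 52 members had no other member beside them or 1 gene away. The build behind the counts is not given in the sources used here, so the assembly served for gene order only and no coordinates are printed.

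Apart from Mycth_50920, the genes of the run shared one pattern. They were low on starch, with means of 0.0883 to 1.43 CPM. On glucose they had a median of 1.09% of the no carbon level, and they were abundant without carbon. Summed over these 9 genes, the level was 5.77 and 6.14 CPM on starch, 52.4 and 49.4 CPM on glucose, and 4979.6 and 4810.3 CPM without carbon. Per length, their mean RPKM (CPM divided by gene length in kilobases) ranked between 8049 and 8844 of the 9110 genes on starch, between 5557 and 8096 on glucose, and between 73 and 916 without carbon. No member outside this run had a glucose level under 10% of its no carbon level.

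The lowest starch level relative to both other media was that of Mycth_48716 (1146 bases), the last gene of the run. It had 0.133 and 0.0435 CPM on starch, 6.07 and 5.75 CPM on glucose, and 635 and 615 CPM without carbon. These values rest on 4 reads over both starch libraries, 255 over both glucose libraries and 24751 over both no carbon libraries. The 3 media did not overlap. Its starch level was 1.49% of its glucose level (95% counting interval 0.403% to 3.86%) and 0.0141% of its no carbon level (0.00383% to 0.0360%). The log2 fold changes in edgeR were -6.18 for starch over glucose (SE 0.294) and -12.66 for starch over no carbon (SE 0.0875). Both counting intervals are far wider than these SEs imply. The SEs are thus too small for a mean that rests on 4 starch reads.

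Mycth_81364 (1611 bases) had the next lowest starch share of the glucose level, with 0.222 and 0.174 CPM on starch, 4.85 and 5.37 CPM on glucose, and 347 and 342 CPM without carbon. Only 9 reads were counted on starch, which put it at 3.87% of its glucose level (95% counting interval 1.74% to 7.44%). Its neighbour Mycth_2303707 (1254 bases) had 0.311 and 0.566 CPM on starch, 8.83 and 8.08 CPM on glucose, and 424 and 389 CPM without carbon. Its 20 starch reads gave 5.18% of the glucose level (3.15% to 8.18%). For both genes the glucose libraries lay well above the starch libraries and far below the no carbon libraries.

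Mycth_115957 (1074 bases) was nearly silent on both sugars and the most abundant gene of the run without carbon. It had 0.355 and 0.479 CPM on starch, 1.33 and 0.804 CPM on glucose, and 1454 and 1413 CPM without carbon. By mean RPKM it ranked 8565 of 9110 genes on starch, 8096 on glucose and 73 without carbon. On 19 starch reads and 45 glucose reads, the starch level was 39.1% of the glucose level, with a wide counting interval of 22.2% to 70%. Its glucose mean of 1.07 CPM was the lowest among the members and barely met the bound. Without glucose replicate 1 it fell short of that bound, and 8 members instead of 10 stood in succession.

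Mycth_50128 (822 bases), the first gene of the run, had 1.06 and 0.740 CPM on starch, 3.93 and 3.13 CPM on glucose, and 625 and 603 CPM without carbon. Mycth_2303702 (1675 bases) had 1.06 and 1.09 CPM on starch, 6.69 and 6.52 CPM on glucose, and 589.9 and 559.6 CPM without carbon. On starch these 2 genes stood at 0.147% and 0.187% of the no carbon level. Mycth_2138881 (1287 bases) had 0.621 and 0.827 CPM on starch, 4.64 and 4.53 CPM on glucose, and 441 and 433 CPM without carbon. Mycth_2303709 (1924 bases) had 0.754 and 0.609 CPM on starch, 3.32 and 3.22 CPM on glucose, and 297 and 301 CPM without carbon. Starch levels of these 4 genes were 15.8% to 25.6% of the glucose levels. In none of them did libraries of different media overlap, which the selection favoured for starch.

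Mycth_2303701 (1010 bases) had the highest level on both sugars among the 9. It had 1.24 and 1.61 CPM on starch, 12.8 and 12 CPM on glucose, and 167 and 155 CPM without carbon. Its starch level was 0.886% of the no carbon level (95% counting interval 0.681% to 1.13%) and its glucose level 7.69% (6.98% to 8.35%). The glucose share of the no carbon level was thus not the same for all genes of the run. It was 0.0743% for Mycth_115957 (0.0529% to 0.0970%), 0.575% for Mycth_50128 and 2.08% for Mycth_2303707, while Mycth_2303702, Mycth_2138881, Mycth_2303709 and Mycth_48716 lay between 0.946% and 1.15%. The counting intervals of the lowest and the highest share did not meet those of any of these.

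**Figure D2:**
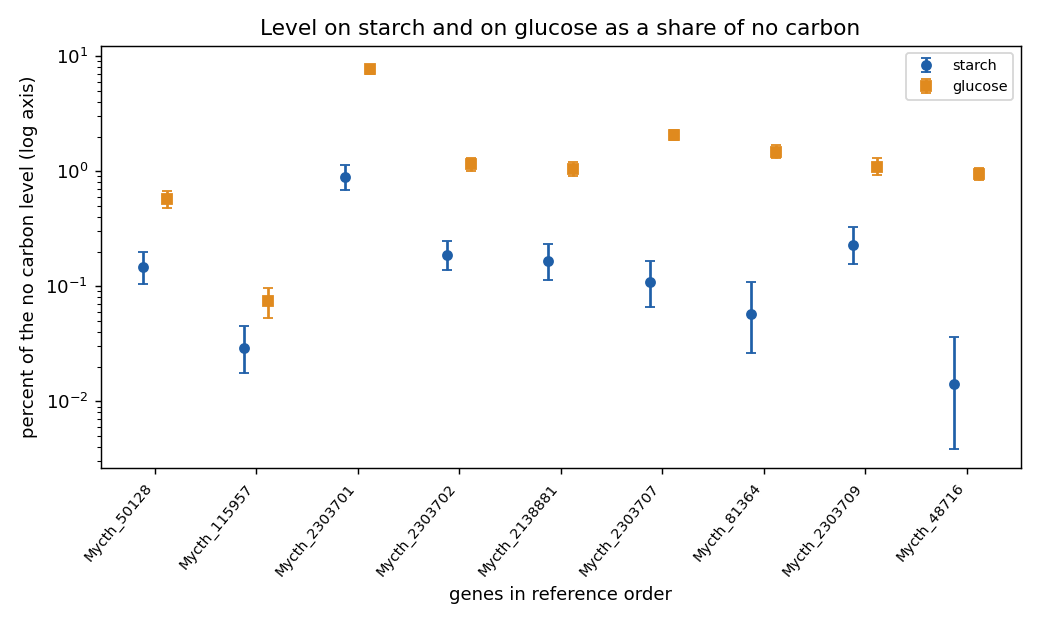
The level on starch (circles) and on glucose (squares) is shown as a percent of the no carbon level, on a log axis, for the 9 genes of the run other than Mycth_50920, in gene order. Points are ratios of mean CPM over 2 libraries each, and bars are exact 95% counting intervals from the summed reads. Starch lies below glucose for each gene, from 0.0141% for Mycth_48716 to 0.886% for Mycth_2303701.

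Mycth_50920 (1758 bases) stood inside the run, between Mycth_2303709 and Mycth_48716, with another profile. It had 42.1 and 46.6 CPM on starch, 103 and 105 CPM on glucose, and 192 and 181 CPM without carbon. Its glucose level was 55.7% of its no carbon level and its starch level 42.7% of its glucose level, both within the range of the members elsewhere in the genome. The genes on either side of the run were higher without carbon as well, with smaller differences between the sugars. The run ends where a gene misses the bounds, so this contrast between the sugars is not independent of the selection. Mycth_68164, just before the run, had 26.3 and 27.7 CPM on starch, 25.2 and 27.2 CPM on glucose, and 149.8 and 145 CPM without carbon. Mycth_107763, just after it, had 26.8 and 23.2 CPM on starch, 27.6 and 25 CPM on glucose, and 423 and 422 CPM without carbon. For both flanking genes the starch and glucose libraries overlapped in CPM by library totals. With TMM scaling, edgeR called both lower on starch than on glucose, at log2 fold changes of -0.17 for Mycth_68164 (adjusted p = 0.0245) and -0.27 for Mycth_107763 (adjusted p = 3.22e-04). Further out the direction varied. Before the run, Mycth_2303695, Mycth_2303693, Mycth_2303692, Mycth_2303691 and Mycth_94266 were at 113%, 82.1%, 183%, 201% and 30.7% of their glucose level on starch, the last at under 1 CPM on starch. After the run, Mycth_2062976, Mycth_2118002, Mycth_2303718 and Mycth_101972 were at 164%, 5.37%, 95.4% and 55.2%. Mycth_2118002 and Mycth_101972 had under 1 CPM in every library. On glucose Mycth_2118002 was at 1032% of its no carbon level, the other way from the run. Mycth_2126499, before Mycth_101972, had no reads on glucose.

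**Figure D3:**
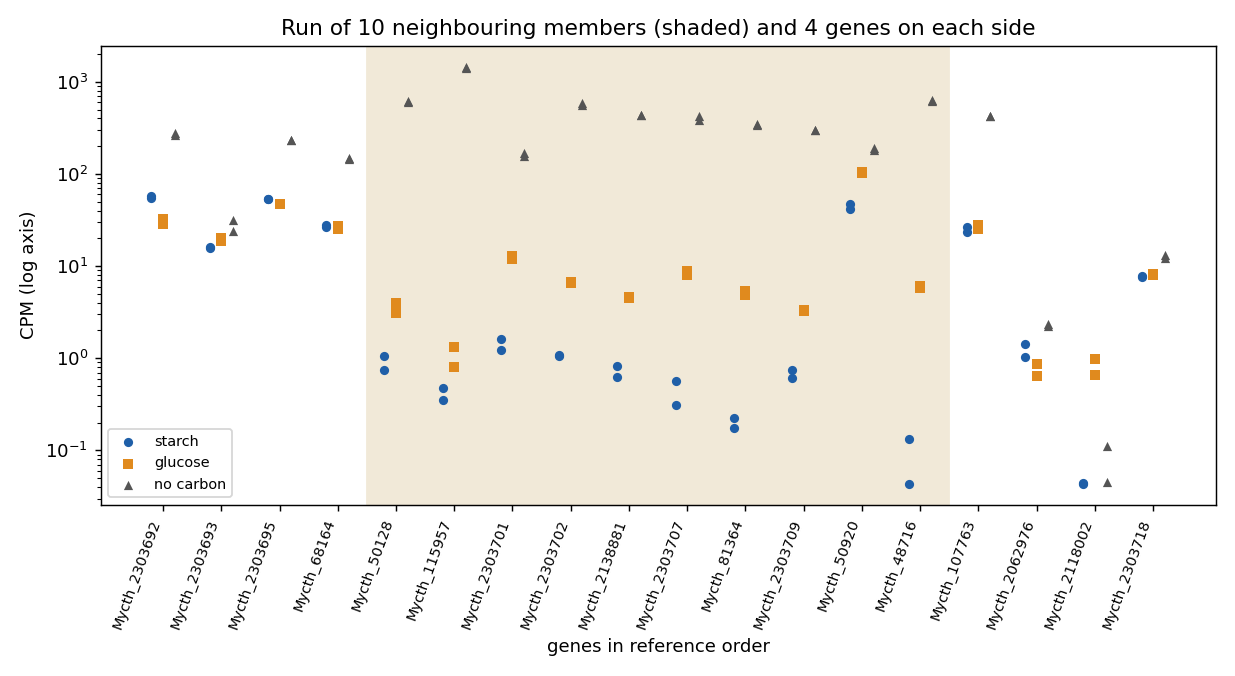
CPM of each library on a log axis for the 10 members of the run (shaded) and 4 genes on each side, in gene order. Circles are starch, squares glucose and triangles no carbon, with 2 points each. In the shaded part starch lies below glucose for each gene, as the selection required. In the next gene on either side, Mycth_68164 and Mycth_107763, starch and glucose overlap in CPM. The run ends where a gene misses the bounds, so this contrast is not independent of the selection.

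In the other 54 members, starch lay less far below the other media. Their starch level had a median of 42.6% of the glucose level (20.3% to 49.8%) and of 32.2% of the no carbon level (5.92% to 49.8%), and their glucose level a median of 81.1% of the no carbon level. Each had at least 24 reads over both starch libraries. Members in the 4 lowest places for reads on starch were all in the run. Between replicate libraries the median ratio of the higher to the lower value over the 64 members was 1.10 on starch, 1.04 on glucose and 1.03 without carbon, against 1.04, 1.04 and 1.05 over all genes tested. The largest ratio on starch was 3.06, for Mycth_48716 with its 4 reads.

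Glucose and no carbon also differed for most members, in both directions, as they did for most genes tested. The glucose mean was under 10% of the no carbon mean for 9 members, all in the run, from 10 to 50% for 9, from 50 to 100% for 31 and from 100 to 200% for 15. The edgeR test called 32 members lower and 19 higher on glucose than without carbon, while 45.7% and 44.8% of all genes tested were called lower and higher. With library totals alone the split was 43 lower and 12 higher, beside 53.0% and 38.3% of all genes. In the test against 2-fold, 13 members were lower and 0 higher, beside 21.4% and 21.7% of all genes. The selection capped this contrast at 200%, so these counts are not independent of it.

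Among the 9 members with glucose at 10 to 50% of no carbon, the 3 media formed a stair in each, with starch lowest and no carbon highest. Mycth_2302321 had 15.9 and 13.7 CPM on starch, 32.7 and 33.1 CPM on glucose, and 126 and 121 CPM without carbon. Mycth_2308875 had 25.6 and 24.8 CPM on starch, 71.5 and 79.2 CPM on glucose, and 172 and 164 CPM without carbon. Mycth_2303108 was the most abundant by CPM, with 42.4 and 41.7 CPM on starch, 88.8 and 86.1 CPM on glucose, and 181 and 172 CPM without carbon. These 3 were chosen after their values were seen. The other 6 were rarer, from 6.94 to 37.2 CPM without carbon. Mycth_2306097 was the lowest on both sugars, with 0.355 and 0.696 CPM on starch, 0.919 and 1.40 CPM on glucose, and 7.84 and 9.93 CPM without carbon. Its media did not overlap, which the selection favoured for starch. One of the 6 was Mycth_2125509, with 0.843 and 1.39 CPM on starch, 2.40 and 2.67 CPM on glucose, and 6.55 and 7.33 CPM without carbon. Its neighbour Mycth_2301600 was more abundant and less steep, with 10.4 and 11.3 CPM on starch, 24.6 and 22.4 CPM on glucose, and 39.2 and 36.7 CPM without carbon.

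The group of 31 with glucose at 50 to 100% of no carbon held the most abundant member, Mycth_2315548 (1448 bases). It had 1641 and 1635 CPM on starch, 3765 and 3696 CPM on glucose, and 4193 and 4136 CPM without carbon. By mean RPKM it ranked 97 of 9110 genes on starch, 29 on glucose and 28 without carbon, so it stayed among the abundant genes in every medium at 43.9% of its glucose level. Its log2 fold change for starch over glucose was -1.39 (SE 0.0249) and for starch over no carbon -1.30 (SE 0.0248). Its small difference between glucose and no carbon changed sign with the scaling, at 0.09 with TMM factors and -0.16 with library totals. Mycth_2302804 (678 bases) had 148 and 145 CPM on starch, 376 and 371 CPM on glucose, and 544 and 527 CPM without carbon, again with no overlap of media.

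The lowest starch shares of the glucose level in this group were those of a pair of genes with close levels on glucose and without carbon. Mycth_2313031 (1016 bases) had 3.73 and 4.87 CPM on starch, 18.0 and 16.6 CPM on glucose, and 18.2 and 18.4 CPM without carbon. Mycth_2299397 (1904 bases) had 104 and 103 CPM on starch, 396 and 402 CPM on glucose, and 429.5 and 416 CPM without carbon. Its span overlaps a neighbouring gene in the RefSeq table, as does that of Mycth_2302321, and with the strand setting not given the reads of such pairs cannot be told apart. Starch stood at 24.8% of glucose for Mycth_2313031 and at 25.8% for Mycth_2299397, and glucose at 94.6% and 94.3% of no carbon.

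Mycth_112824 (1514 bases) had 7.23 and 5.96 CPM on starch, 23.2 and 21.4 CPM on glucose, and 25.6 and 25 CPM without carbon. Mycth_2067982 (786 bases) had 6.21 and 5.61 CPM on starch, 19.7 and 19.8 CPM on glucose, and 25.1 and 26.9 CPM without carbon. Mycth_2308119 (962 bases) had 67.3 and 63.7 CPM on starch, 222 and 229.7 CPM on glucose, and 293 and 284 CPM without carbon. Starch was at 29.0% to 30.0% of glucose in these 3 genes. Mycth_2119667 (483 bases) had 22.1 and 20.8 CPM on starch, 73.9 and 76.9 CPM on glucose, and 132 and 134 CPM without carbon, with starch at 28.4% of glucose and 16.1% of no carbon. For 20 of the 30 members of this group outside the run, in contrast, the starch level was over 40% of the glucose level.

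In the group of 15 with glucose at 100 to 200% of no carbon, all 15 were called higher on glucose than without carbon with TMM scaling, against 44.8% of all genes tested, as the choice of the group favours. With library totals alone, 12 of all 64 members were called higher, against 38.3% of all genes tested. The starch level of the group of 15 had a median of 28.9% of the glucose level and 43.3% of the no carbon level. Mycth_109510 (1305 bases) was the most abundant, with 276 and 271 CPM on starch, 1371 and 1328 CPM on glucose, and 908 and 905 CPM without carbon. It also had the lowest starch share of glucose in the group, 20.3%, with log2 fold changes of -2.51 for starch over glucose (SE 0.0267) and -1.69 for starch over no carbon (SE 0.0264). Mycth_2299772 (2182 bases) had 252 and 252 CPM on starch, 550.5 and 568 CPM on glucose, and 557 and 541 CPM without carbon, with overlapping values on glucose and without carbon. The starch libraries were lowest by a wide margin in both genes. Mycth_110931, chosen after its values were seen, had 97.5 and 103 CPM on starch, 382 and 384 CPM on glucose, and 296 and 288 CPM without carbon. The longest member, Mycth_103096 (8310 bases), had 48.4 and 50.5 CPM on starch, 128 and 128 CPM on glucose, and 102 and 100.3 CPM without carbon. In both of these, the no carbon libraries lay between the starch and the glucose libraries.

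**Figure D4:**
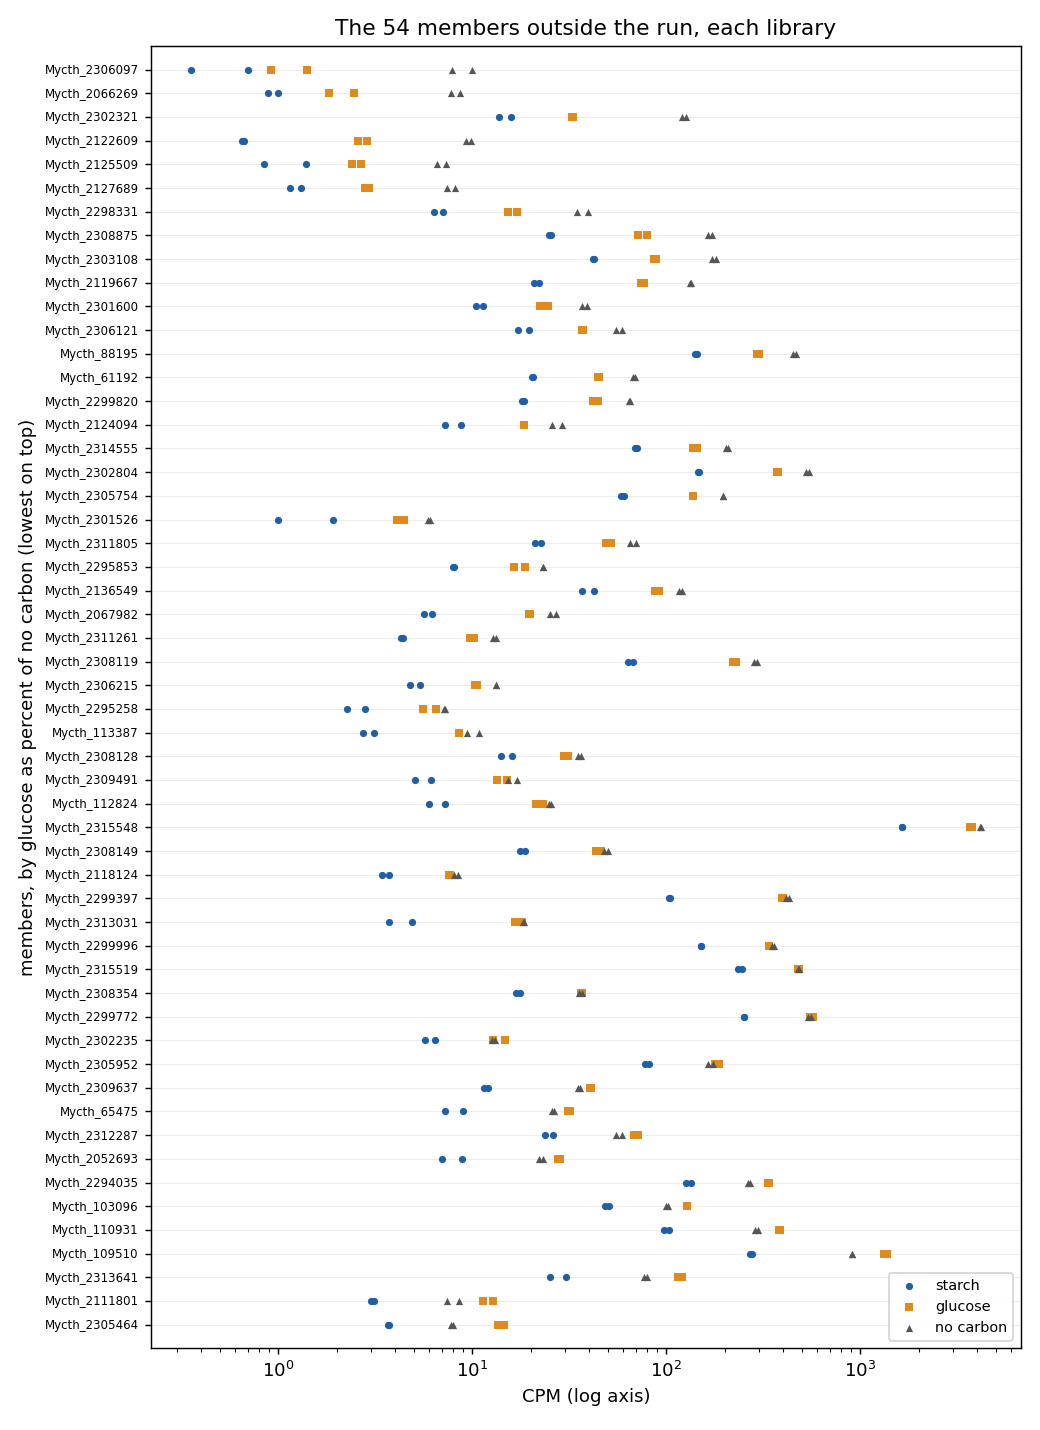
CPM of each library on a log axis for the 54 members outside the run, ordered from the lowest (top) to the highest (bottom) glucose level as a percent of no carbon. Circles are starch, squares glucose and triangles no carbon, with 2 points each. Starch lies to the left of both other media in each row, while glucose moves from the left of no carbon at the top, at 13%, to its right at the bottom, at 178%.

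The starch bounds had genes close on both sides. The other bounds lay in wider gaps, though Mycth_115957 on glucose and Mycth_2129411 without carbon were close to their bounds. The members nearest the starch bounds were Mycth_2315519, at 49.8% of both glucose and no carbon, and Mycth_2306121, at 49.6% of glucose. Just outside were Mycth_2314374, with 41.5 CPM on starch and 82.9 CPM on glucose, Mycth_2295724, with starch at 50.6% of glucose, and Mycth_2301079 and Mycth_2310989, at 51.3% and 51.7% of no carbon. On the upper bound of glucose over no carbon, Mycth_2305464 at 178% was the nearest inside and Mycth_54712 at 339% the nearest outside. On the lower bound of glucose, Mycth_115957 at 1.07 CPM and Mycth_2306097 at 1.16 CPM lay inside, and Mycth_2129548 at 0.140 CPM was the nearest outside. On the lower bound without carbon, Mycth_2301526 at 5.97 CPM was the nearest inside and Mycth_2129411 at 2.97 CPM the nearest outside.

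The members were somewhat shorter than the genes at large, with a median length of 1292 bases (quartiles 958 and 1596), against 1541 bases (quartiles 1000 and 2203) over the 8989 genes with a length. The genes of the run measured 822 to 1924 bases. The part of gene length in the differences was not tested. Outside the members, the genes most like Mycth_48716 over the 6 libraries, by Pearson's r of log2(CPM + 1), were Mycth_2305455, Mycth_2316383 and Mycth_2310252, with r from 0.9995 to 0.9996. For Mycth_2303707 they were Mycth_2300142, Mycth_2074210 and Mycth_2304122, with r from 0.9992 to 0.9996. These genes shared the order of the media but not the size of the differences. Mycth_2316383 had 54.3 and 52.6 CPM on starch, 93.0 and 98.5 CPM on glucose, and 378 and 364 CPM without carbon. With 3 media and close replicates, such an r describes the order and spacing of 3 levels and no more.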

How the data were processed

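Per the file headers, the deposited table gives raw read counts and RPKM for each gene in 6 libraries. Reads were processed with TopHat2 (version 2.0.8b) and HTSeq (version 0.5.4p2), per the submitters' processing notes. Their settings, the build and the use of strand were not given in any source used here. The authors' RPKM equalled count over library total and gene length, with 100.0% of 8989 implied lengths whole within 0.001 bases, and served for lengths and ranks. CPM uses column totals. edgeR 4.0.16 in R 4.3.3 was run on the counts: filterByExpr (8718 genes tested, 392 not), TMM factors, all 6 libraries in 1 fit without covariates, robust glmQLFit and glmQLFTest, Benjamini-Hochberg adjustment over all genes tested and a threshold of 0.05. SE is the log2 fold change over the square root of F, and can be too small where a medium has few reads. The test was tried on simulated data. Alternatives were DESeq2 1.42.0, other scalings and filters, glmTreat, a replicate block, fits on 2 media, left-out libraries and other bounds. Counting intervals are exact Clopper-Pearson at 95%, conditional on summed reads, and cover counting error only. At these depths 3 reads are 0.127 to 0.169 CPM.

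Gene order and symbols came from RefSeq's table for assembly ASM22609v1, joined by locus tag (9087 of 9110, and all 64 members). Members, lists and tests were chosen with earlier results of these data known. The genes named were those supplied as typical of the set (Mycth_48716 and Mycth_2303707), the 8 with the highest CPM on glucose or without carbon, the 8 with the lowest starch share of the lower of both (at least 10 CPM there), and members at most 1 gene apart; others are marked or mark an extreme or a bound. Planned protein patterns and word lists were not run, having no sequence or product text.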

Additional observations from a re-analysis of the deposited data

How the results depend on the processing

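With 1.5-fold bounds 195 genes met the selection, and with 3-fold bounds 18 did, of which 6 stood in succession in the run. Scaling by TMM or RLE factors gave 88 or 96 genes (60 or 62 of the 64 among them), and bounds held by every pair of libraries gave 50. Leaving out each library in turn gave 62 to 71 genes, and 8 to 10 in succession. Counts of members called lower on starch were 63 or 64 for each comparison under every alternative of the plain test. Between glucose and no carbon, the test against 2-fold called 13 members in place of 51, with 13 lower and 0 higher; the plain test gave 19 higher, DESeq2 also 19, and library totals alone 12. With library totals alone, log2 fold changes of glucose over no carbon turned to -0.19 for Mycth_112824, -0.08 for Mycth_2299397 and -0.16 for Mycth_2315548, and upper quartile scaling gave -0.05 for Mycth_2315548. With library totals the median gene itself stood at -0.27 in this comparison. Mycth_2306097 was the member that lost its call, for starch against glucose without glucose replicate 2 (adjusted p = 0.0898, edgeR). Single alternatives of the plain test were followed for 22 genes named by rule. Under these, none of their fold changes of starch over either medium turned or lost its call. The test against 2-fold was not followed gene by gene. With the replicate number as a block, 64, 64 and 51 members were called, as without it. Same-numbered libraries did not deviate together over the genes tested (correlations 0.03, -0.00 and -0.00). With 2 libraries per medium, this cannot show whether the replicates were handled in pairs. The 4 members with at most 20 starch reads are limited by depth.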

Other observations

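Other genes of starvation are described here beside the run. In all, 103 genes (1.13% of 9110) had at least 10 CPM without carbon and at most 10% of that level on starch and on glucose, a bound chosen after the data were seen. Of these, 9 were genes of the run. The other 94 had a median starch level of 134% of their glucose level, against 118% over the 8718 genes tested. Of the 94, 74 were higher on starch than on glucose by mean CPM with library totals. The share of all genes tested that were higher in this way is not given here. The selection itself put starch at no more than 50% of glucose in the 9 and left such genes out of the 94. The contrast of the 9 with the 94 is thus not independent of it. In gene order, 8 of the 103 stood in immediate succession, from Mycth_50128 to Mycth_2303709, and no other succession exceeded 2 genes. Mycth_48716 and Mycth_107763, on the far side of Mycth_50920, formed 1 of the 5 pairs.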
